A study of Mus musculus with 2 samples.

Results

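Hoxa9, Hoxa10, Hoxa11, Hoxa13, Hoxb13, Hoxd9, Hoxd10, Hoxd11, Hoxd12 and Hoxd13 are the 10 genes described here, taken by name from the gene list that both libraries share. They are 10 of 32285 genes in the files and 10 of the 39 Hox genes among them. The study profiled single cells of wild-type male mouse prostate of strain C57BL6. It has 2 libraries of 1 sample each. One comes from the ventral lobes and is called the ventral library here. The other comes from the region near the urethra where the ducts join it, and is called the proximal library. Tissue was digested with papain and then TrypLE, and no sort by marker is described. The labels give neither the age nor the number of animals. Both used a 10x Genomics 3′ kit, of version 2 for ventral and of version 3 for proximal cells, and dissection and kit cannot be told apart.

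Hox genes encode homeodomain transcription factors that lie in 4 chromosomal clusters, in the order in which they act along the body axis. The genes at the 5′ end of each cluster, called posterior, work in the hindgut, the limb ends and the urogenital tract. In the male tract they take part in setting the identity and branching of the accessory glands: Hoxb13 is a marker of prostate epithelium and is needed for normal secretory cells of the ventral lobe, Hoxa10 for the shape of the anterior lobe, and Hoxa13 and Hoxd13 for the outgrowth of the genital tubercle and the branching of prostate ducts. Hoxa9, Hoxa11, Hoxd9, Hoxd10, Hoxd11 and Hoxd12 are best known from the axial skeleton, the limb, the kidney and the reproductive ducts.

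On mouse build GRCm38 the HoxA members lie on the minus strand of chromosome 6, with Hoxa9 at chr6:52223100-52231089, Hoxa10 at chr6:52231197-52240854, Hoxa11 at chr6:52242106-52245810 and Hoxa13 at chr6:52257694-52260880. The HoxD members lie on the plus strand of chromosome 2. Hoxd13 is at chr2:74668310-74671599, Hoxd12 at chr2:74675013-74677705, Hoxd11 at chr2:74679557-74687016, Hoxd10 at chr2:74691924-74695105 and Hoxd9 at chr2:74697727-74700208. Hoxb13 stands alone on the plus strand of chromosome 11, at chr11:96194316-96197447, 74.0 kb from its nearest Hox neighbour Hoxb9. Hoxa11 is the only member that overlaps another gene of the files, the antisense RNA Hoxa11os on the other strand.

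RefSeq promoter windows on GRCm38.p6 were held for 9 of the 10 members, with 11 start sites in all. The 250 bases upstream of the start are shown for Hoxd13 and Hoxa13, the last genes of their clusters, which stood higher in fibroblast-like cells than in each epithelial class, and for the upstream start of Hoxa10, whose order among epithelial classes differed between libraries. Capitals mark TATAAA (the box bound by TBP), CCAAT (the box bound by NF-Y), TTTAT (a core favoured by the posterior class of Hox proteins) and TGACAG (a core of Meis proteins), on either strand. The windows are chr2:74667975-74668224 on the plus strand for Hoxd13, and chr6:52260881-52261130 and chr6:52240855-52241104 on the minus strand for Hoxa13 and Hoxa10.
Hoxd13: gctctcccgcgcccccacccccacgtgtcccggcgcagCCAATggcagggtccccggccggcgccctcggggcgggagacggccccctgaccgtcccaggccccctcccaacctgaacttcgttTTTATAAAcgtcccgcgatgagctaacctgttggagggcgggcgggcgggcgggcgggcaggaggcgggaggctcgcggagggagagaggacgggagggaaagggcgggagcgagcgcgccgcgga
Hoxa13: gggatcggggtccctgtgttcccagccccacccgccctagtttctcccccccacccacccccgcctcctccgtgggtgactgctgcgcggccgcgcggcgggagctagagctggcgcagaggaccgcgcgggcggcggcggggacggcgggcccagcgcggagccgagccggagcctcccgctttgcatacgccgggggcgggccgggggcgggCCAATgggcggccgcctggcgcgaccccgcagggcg
Hoxa10: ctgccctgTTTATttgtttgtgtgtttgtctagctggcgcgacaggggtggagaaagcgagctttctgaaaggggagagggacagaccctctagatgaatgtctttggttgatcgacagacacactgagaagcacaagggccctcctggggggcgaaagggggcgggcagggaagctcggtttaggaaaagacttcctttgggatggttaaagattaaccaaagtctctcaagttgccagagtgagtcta
The Hoxd13 window is 74.4% G or C and holds TATAAA on both strands. The first bases of these matches lie 124 and 126 bases before the start. Both of its TTTAT matches lie inside them, since TATAAA contains the reverse complement of TTTAT. It also has 1 CCAAT. The Hoxa13 window is 80.0% G or C and holds 1 CCAAT, 36 bases before the start. The Hoxa10 window is 51.6% G or C and holds 1 TTTAT, 242 bases before the start. The other Hoxa10 start, not shown, has a window of 59.2% G or C at chr6:52234940-52235189, with TATAAA 160 and CCAAT 64 bases before the start, both on the opposite strand, and 1 TTTAT inside the former. Over the 11 start sites of the members, TATAAA occurred in 2, CCAAT in 5, TTTAT in 4 and TGACAG in 0. Over all 32851 windows of 250 bases, 12.4% held TATAAA, 33.8% CCAAT, 37.3% TTTAT and 15.9% TGACAG.

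The ventral matrix held 2221 barcodes and 49356584 UMIs (unique molecular identifiers, each counted as 1 RNA molecule), and the proximal matrix 4344 barcodes and 97817600 UMIs. No barcode was shared. After filtering, 1988 ventral and 3705 proximal cells fell into 13 and 21 clusters, clustered without any Hox gene and named from marker lists. Ventral cells gave 1444 distal luminal-like (secretory), 94 proximal luminal-like (duct-lining) and 141 basal-like cells, 40 macrophage-like cells and 269 cells left unnamed. Proximal cells gave 707 distal luminal-like, 426 proximal luminal-like, 910 basal-like, 516 fibroblast-like, 61 endothelial-like, 79 macrophage-like, 27 T or NK cell-like, 26 seminal vesicle epithelium-like and 6 smooth muscle-like cells, with 947 cells left unnamed. In each of these named classes at least 5 of its 6 to 8 markers were found in at least 25% of cells. The ventral macrophage-like cluster scored second for T or NK cell markers. Median UMIs per cell ran from 3714.5 in ventral macrophage-like to 47734 in proximal distal luminal-like cells.

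Levels are UMIs of a gene in 1000000 UMIs of a class (CPM), with exact Poisson 95% intervals that cover counting error only. With 1 library in each group there is no replicate and no test. A gene was counted as higher or lower between 2 classes when its level differed at least 2-fold, the exact 95% interval of the ratio did not include 1, and both classes together held at least 10 of its UMIs. The secretory products Sbp and Spink1 took 46.0% of all UMIs in ventral and 16.2% in proximal cells of the distal luminal-like class, against 0.104% to 0.166% in the proximal luminal-like, basal-like and fibroblast-like cells of the proximal library. Such genes lower the CPM of all others in the same cells. The median gene of a comparison had a log2 ratio of 0.92 for proximal over ventral distal luminal-like cells, 0.80 and 0.90 for ventral proximal luminal-like and basal-like over distal luminal-like cells, 0.22 for both of those comparisons in the proximal library, and between 0.23 and 0.43 for fibroblast-like cells over the 3 epithelial classes. With genes over 1% of UMIs left out of the totals, the first of these was 0.33, while fibroblast-like over proximal luminal-like and basal-like cells moved from 0.23 and 0.24 to 0.26 and 0.27.

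**Figure D1:**
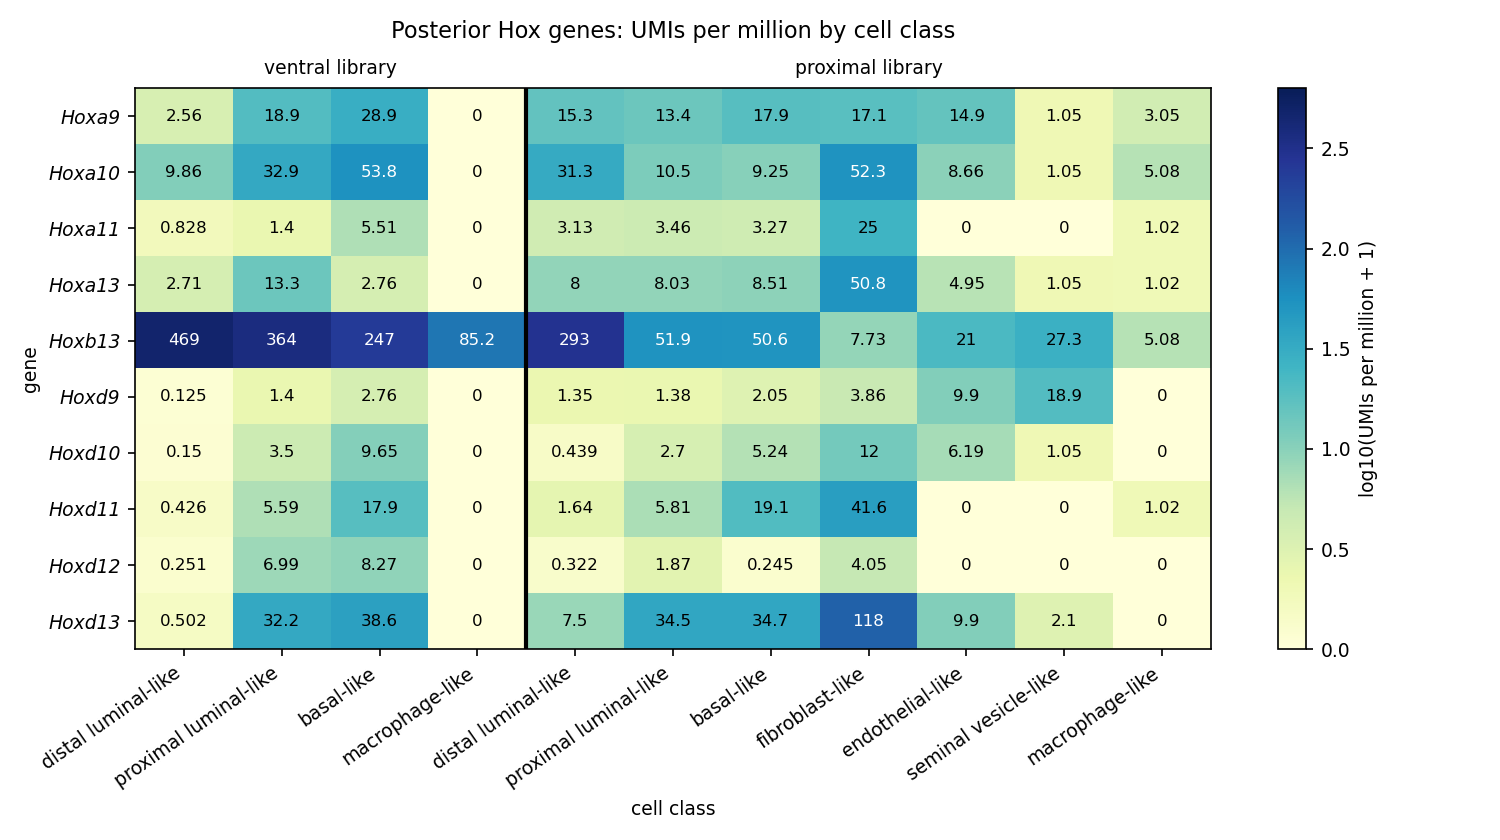
Levels of the 10 genes (rows) in the named classes of at least 26 cells (columns; T or NK cell-like cells are not drawn), in CPM, printed in each square and coloured by log10(CPM + 1); the thick line parts the libraries. Hoxb13 falls to 7.73 in the fibroblast-like column, where Hoxd13 has its highest value, 118.

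Hoxb13 was highest in epithelial classes of both libraries. In the ventral library it stood at 469 CPM (interval 462 to 476) in distal luminal-like, 364 (334 to 397) in proximal luminal-like and 247 (212 to 286) in basal-like cells. In the proximal library it stood at 293 (288 to 299), 51.9 (48.2 to 55.7) and 50.6 (46.7 to 54.7) in the same classes. Distal luminal-like cells were thus highest in both, and 80.2% of all Hoxb13 UMIs in kept proximal cells lay in them. Proximal luminal-like and basal-like cells of the proximal library did not differ beyond counting error, with a 1.03-fold lower level in the latter (0.921 to 1.14).

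Outside the prostate epithelium Hoxb13 stood below each named prostate epithelial class of the same library. Single epithelial clusters of the proximal library were as low, with 11.6 CPM in a basal-like and 26.6 in an unnamed cluster. Proximal fibroblast-like cells had 42 Hoxb13 UMIs, or 7.73 CPM (5.57 to 10.4), and macrophage-like cells, which should lack the gene, had 5.08 (1.65 to 11.9). Endothelial-like cells had 21.04 (12.3 to 33.7) and seminal vesicle epithelium-like cells 27.3 (17.9 to 40.1). In ventral macrophage-like cells the level was 85.2, but 87.5% of its UMIs came from 1 cell. Without the 1 macrophage-like cell with over 5% of its UMIs from Sbp and Spink1, the level was 12.8 (1.55 to 46.1).

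The share of cells with a Hoxb13 UMI was also highest in distal luminal-like cells at a fixed depth. When cells with at least 5000 UMIs were thinned to that number, a UMI was found in 89.0% of 1423 ventral distal luminal-like, 71.4% of 91 proximal luminal-like and 62.3% of 69 basal-like cells. The proximal library gave 74.3% of 630, 24.4% of 418 and 22.7% of 862 cells of those classes. Shallower cells were left out, among them 72 of 141 ventral basal-like cells, 77 of 707 proximal distal luminal-like and 96 of 516 fibroblast-like cells, so that the ventral basal-like share rests on the deeper 69 cells. Fibroblast-like cells gave 3.33% of 420 (exact 95% interval 1.83% to 5.53%) and macrophage-like cells 1.41% of 71 (0.0357% to 7.60%), a wide interval that holds the fibroblast-like share. Median depths of these fibroblast-like and macrophage-like classes before thinning were 10314 and 11922 UMIs. Endothelial-like cells gave 9.43% of 53, seminal vesicle epithelium-like cells 9.09% of 22 and T or NK cell-like cells 5.00% of 20. Whether the fibroblast-like share is background was not tested. At 1000 UMIs, which keeps nearly every cell, proximal luminal-like and basal-like cells of the proximal library changed places within their intervals. There the ventral shares were 36.5%, 24.5% and 18.6% and the proximal shares 28.8%, 3.76% and 5.05%, against 5.00% and 1.28% in the macrophage-like cells of each library. Without thinning they were 99.1%, 93.6% and 68.1% in the ventral and 90.9%, 68.1% and 37.1% in the proximal library.

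The HoxD members had another order. In the ventral library Hoxd13 stood at 0.502 CPM (0.306 to 0.775) in distal luminal-like cells, with 20 UMIs in 1444 cells, and at 32.2 (23.6 to 42.9) in proximal luminal-like and 38.6 (25.6 to 55.8) in basal-like cells. The proximal library gave 7.50 (6.61 to 8.47), 34.5 (31.6 to 37.7) and 34.7 (31.5 to 38.2). Among the luminal and basal classes Hoxd13 was thus lowest in secretory cells of both libraries. Proximal luminal-like and basal-like cells did not differ beyond counting error in either library when all cells of the named classes were counted. The 947 unnamed proximal cells, in clusters that scored best for proximal luminal markers, stood higher, at 49.0 CPM (46.3 to 51.8), and are not part of this comparison. The ratios of basal-like to proximal luminal-like cells were 1.20 (0.722 to 1.96) in the ventral and 1.00 (0.881 to 1.15) in the proximal library. The ventral log2 value of 0.26 became -0.03 without genes over 1% of UMIs in the totals, and -0.74 without the cells over 5% of Sbp and Spink1, at 35.4 against 59.0 CPM. Named cell by cell from marker z-scores, it was 1.60. In ventral cells the ratio over distal luminal-like cells was 64.1 (37.2 to 114) for proximal luminal-like and 76.9 (41.8 to 144) for basal-like cells. In proximal cells the ratios were 4.605 (3.95 to 5.37) and 4.63 (3.95 to 5.42).

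Hoxd10 and Hoxd11 had the same low point in secretory cells, at lower counts. Hoxd11 stood at 0.426, 5.59 and 17.9 CPM in ventral distal luminal-like, proximal luminal-like and basal-like cells and at 1.64, 5.81 and 19.1 in the proximal library. The rise from proximal luminal-like to basal-like cells was 3.20-fold (1.23 to 8.91) in ventral and 3.28-fold (2.55 to 4.26) in proximal cells. The ventral values rest on 8 and 13 UMIs. Without the ventral cells over 5% of Sbp and Spink1 they were 12.4 CPM (5.36 to 24.5) and 16.98 (8.77 to 29.7), and the log2 ratio of 1.68 fell to 0.45, so that the ventral call was lost. As a mean over cells it was 0.94, also under 2-fold. With all cells of the named classes counted, Hoxd11 was the only member called higher in basal-like cells in this comparison in either library. There 13.7% and 14.7% of genes tested were called higher. Hoxd10 stood at 0.150, 3.50 and 9.65 in ventral and 0.439, 2.70 and 5.24 in proximal cells of these classes.

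Hoxd12 parted from its neighbours in basal-like cells of the proximal library. It had 3 UMIs there, or 0.245 CPM (0.0506 to 0.717), against 27 UMIs, or 1.87 (1.23 to 2.72), in proximal luminal-like cells, a 7.61-fold lower level (2.34 to 39.2). In ventral basal-like cells Hoxd12 had 6 UMIs, or 8.27 CPM (3.04 to 18.0). Hoxd9 was low in the 6 luminal and basal classes, between 0.125 and 2.76 CPM, with at most 46 UMIs in a class.

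Of 9 members tested in each ventral comparison, 7 were called higher in proximal luminal-like over distal luminal-like cells of the ventral library (background 29.2% of genes tested), and 7 in basal-like over distal luminal-like cells (31.2%). With genes over 1% of UMIs left out of the totals, the first comparison gave 7 higher (11.6%), and the second 6 higher (13.5%) and 1 lower (15.8%). In the proximal library, with all 10 tested, 4 were called higher in proximal luminal-like cells (24.9%), all of them HoxD genes, and 2 lower (14.3%), Hoxa10 and Hoxb13. Basal-like over distal luminal-like cells gave 3 higher (28.1%), Hoxd10, Hoxd11 and Hoxd13, and the same 2 lower (18.1%). Relative to the median gene, the log2 ratio of Hoxd13 in proximal luminal-like over distal luminal-like cells was 5.20 in ventral and 1.99 in proximal cells, and that of Hoxd11 2.91 and 1.61.

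Markers of other cell types moved with part of this. All 7 fibroblast markers had UMIs in ventral basal-like cells, with a summed level of 5314 CPM, of which Dcn gave 5209 and the other 6 markers 105. In fibroblast-like cells of the proximal library the same sums were 9158, 6011 and 3147. In the basal-like cells of the proximal library they were 1342, 1336 and 6.46. Ventral proximal luminal-like cells had 17.5, with 5 of the 7 markers at 0. The 6 smooth muscle markers summed to 205 CPM in ventral basal-like cells, with Actg2 at 0, and to 21.4 in those of the proximal library. The part of these RNAs in the levels of the HoxD members, Hoxa9 and Hoxa10 in ventral basal-like cells was not tested. Ventral proximal luminal-like cells held ventral secretory RNA instead, and in the 59 of 94 cells with at most 5% of UMIs from Sbp and Spink1 Hoxd13 stood at 59.0 CPM (41.7 to 80.9).

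Among the HoxA members, Hoxa10 changed its order between libraries. In the ventral library it stood at 9.86 CPM (8.91 to 10.9) in distal luminal-like, 32.9 (24.2 to 43.7) in proximal luminal-like and 53.8 (38.2 to 73.5) in basal-like cells. Among proximal cells it stood at 31.3 (29.5 to 33.2), 10.5 (8.91 to 12.3) and 9.25 (7.62 to 11.1). Among the luminal and basal classes, pooled secretory cells were therefore lowest in the first and highest in the second library. In the second library the secretory cells rich in Sbp, described below, stood at 11.3 CPM, near the proximal luminal-like level. Those rich in Tgm4 and Msmb stood at 35.5 and 44.9. The ratio of proximal luminal-like to distal luminal-like cells was 3.33 (2.41 to 4.52) among ventral cells, and among proximal cells the level was 2.98-fold lower (2.51 to 3.55). Both directions held relative to the median gene, with log2 ratios of 0.94 and -1.79. With cells named one by one from marker z-scores the ventral log2 ratio of 1.74 was 0.86, under 2-fold. The ventral basal-like value stands beside the fibroblast and smooth muscle RNA given above.

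Hoxa9 stood at 2.56, 18.9 and 28.9 CPM in ventral distal luminal-like, proximal luminal-like and basal-like cells. In the proximal library the same classes held 15.3, 13.4 and 17.9 CPM, a spread of at most 1.34-fold between classes, without a call. Hoxa13 stood at 8.00, 8.03 and 8.51 in the proximal library, with ratios over distal luminal-like cells of 1.00 (0.801 to 1.25) and 1.06 (0.841 to 1.34), both of which fell below 1 under either other scaling. In the ventral library Hoxa13 was 2.71 (2.22 to 3.27) in distal luminal-like, 13.3 (8.00 to 20.8) in proximal luminal-like and 2.76 (0.334 to 9.96) in basal-like cells, the last from 2 UMIs. Its level in basal-like cells was 4.82-fold below that in proximal luminal-like cells (1.16 to 42.7), a log2 ratio of -2.27 that was -0.84 as a mean over cells. Hoxa11 was between 0.828 and 5.51 CPM in the 6 epithelial classes. Reads of Hoxa11 and Hoxa11os come from overlapping genes on opposite strands, and whether the counting used strand is not given in the sources used here.

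Fibroblast-like cells, found in the proximal library only, had the highest level of Hoxa10, Hoxa11, Hoxa13, Hoxd9, Hoxd10, Hoxd11, Hoxd12 and Hoxd13 among the 4 main classes of that library. All but Hoxd9 were called higher over basal-like cells. Relative to the median gene 2 of these 7 fell under 2-fold, Hoxd10 from a log2 ratio of 1.19 to 0.95 and Hoxd11 from 1.13 to 0.89. Hoxd9 stood at 3.86 CPM (2.39 to 5.91) against 2.05 (1.32 to 3.02) there. Hoxd13 stood at 118 CPM (109 to 128), 3.41-fold above basal-like cells (3.01 to 3.86), 3.43-fold above proximal luminal-like (3.04 to 3.86) and 15.8-fold above distal luminal-like cells (13.6 to 18.3). Hoxa13 stood at 50.8 (45.0 to 57.1), 5.97-fold (4.75 to 7.55), 6.33-fold (5.08 to 7.93) and 6.35-fold (5.35 to 7.54) above the same 3 classes. Hoxa11 stood at 25.02 (20.996 to 29.6), between 7.23-fold and 7.99-fold above each. Hoxd11 stood at 41.6 (36.3 to 47.4), from 2.18-fold above basal-like to 25.4-fold above distal luminal-like cells.

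Hoxb13 went the other way, 38.0-fold lower in fibroblast-like than in distal luminal-like cells (28.1 to 52.7), 6.71-fold lower than in proximal luminal-like and 6.54-fold lower than in basal-like cells. Hoxa9 did not part stroma from epithelium beyond counting error. Its 17.1 CPM (13.8 to 20.96) in fibroblast-like cells was 1.28-fold that of proximal luminal-like cells (0.990 to 1.65) and 1.05-fold below that of basal-like cells (0.818 to 1.35). It was 1.11-fold that of distal luminal-like cells (0.884 to 1.39), a log2 ratio of 0.16 that turned to -0.27 relative to the median gene. Hoxa10, at 52.3 (46.4 to 58.7), was 4.97-fold and 5.65-fold above proximal luminal-like and basal-like cells, but 1.67-fold above distal luminal-like cells (1.46 to 1.90), short of a call. In all, 7 members were called higher over distal luminal-like cells (background 33.4%), 8 over proximal luminal-like (27.8%) and 7 over basal-like cells (24.6%). The 1 lower member was Hoxb13 each time, where 13.2%, 15.2% and 11.1% of genes tested were called lower. The median log2 ratio of the 10 members was 2.83, 1.96 and 1.48, beside 0.43, 0.23 and 0.24 for all genes tested. Over proximal luminal-like cells Hoxd12 fell from a log2 ratio of 1.12 to 0.89 relative to the median gene, and Hoxd9 from 1.48 to between 0.40 and 0.95 under 5 alternatives. Over distal luminal-like cells Hoxd9 fell from 1.52 to 0.86 with cells named by marker z-score.

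At 5000 UMIs per cell, Hoxd13 was found in 42.6% of 420 fibroblast-like cells (37.8% to 47.5%), any HoxD member in 54.5% and any HoxA member in 48.6%. Macrophage-like cells gave 0 of 71 for HoxD, with an exact upper bound of 5.06%, and 1 of 71, or 1.41%, for HoxA. T or NK cell-like cells gave 5.00% of 20 for HoxD (0.127% to 24.9%). In all 27 of them, 3 Hoxd13 UMIs made 13.9 CPM (2.88 to 40.8). Both clusters were found together in 25.7% of fibroblast-like cells, that is 108 of them, against 26.5% for the product of the 2 shares. Hoxb13 and any HoxD member were found together in 6.61% of basal-like and 5.74% of proximal luminal-like cells of the proximal library, against products of 5.91% and 4.495%. These products are given as a description; cells differ in how much of each RNA they hold, and the difference was not tested. At 1000 UMIs the Hoxd13 share in fibroblast-like cells was 10.8% (8.23% to 13.8%), and without thinning 60.1%.

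All 3 fibroblast-like clusters carried Hoxd13. It stood at 115 (101 to 131), 130 (116 to 145) and 92.1 (72.9 to 115) CPM in the clusters led by Cxcl14, Cxcl12 and Inmt, which hold 230, 195 and 91 cells. The highest was 1.41-fold above the lowest (1.10 to 1.83). Hoxa10 differed more, at 67.2, 46.5 and 31.5, as did Hoxd11, at 39.0, 50.2 and 23.3. Smooth muscle-like cells were 6, with 3 Hoxd13, 3 Hoxa10 and 1 Hoxb13 UMI, too few for a level. Endothelial-like cells had 9.90 CPM of Hoxd13 (4.27 to 19.5), 14.9 of Hoxa9 (7.67 to 25.9), 9.90 of Hoxd9 (4.27 to 19.5), and 0 UMIs of Hoxa11, Hoxd11 and Hoxd12, which in 807953 UMIs allows up to 3.71 CPM by a limit of 3 UMIs and 4.57 by the exact interval.

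**Figure D2:**
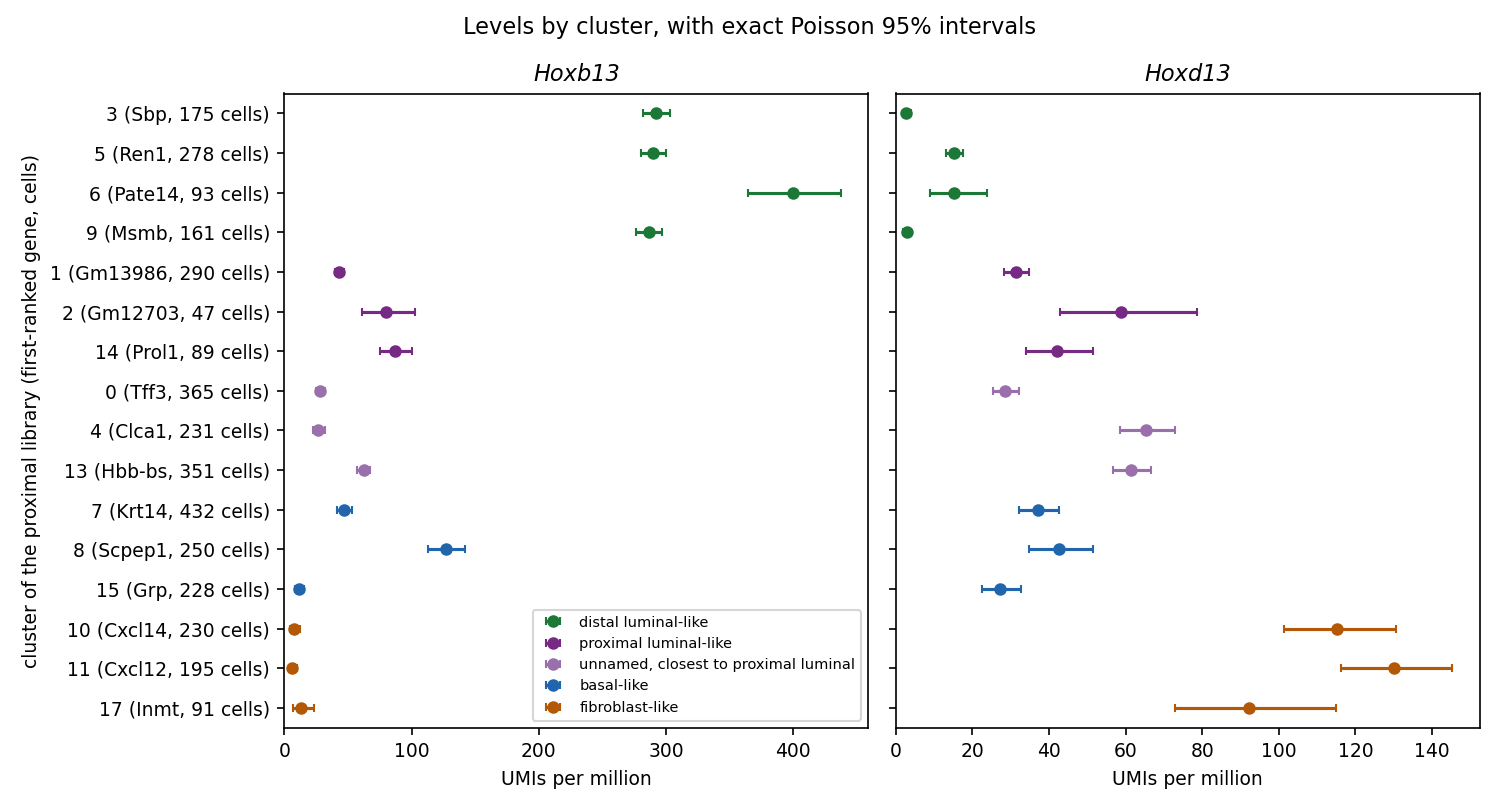
Levels of Hoxb13 (left) and Hoxd13 (right) in CPM (x axes) for 16 clusters of the proximal library (y axis, with the first-ranked gene and the number of cells); points are levels, bars exact Poisson 95% intervals, and colours the class. Hoxb13 runs from 286 to 400 in distal luminal-like clusters and Hoxd13 from 92.1 to 130 in fibroblast-like clusters, and the Scpep1-led basal-like cluster has the highest Hoxb13 of the other epithelial clusters, 127.

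Hoxb13 differed among the 3 basal-like clusters of the proximal library. The cluster led by Krt14 and Krt17 (432 cells) had 46.8 CPM (41.2 to 52.9). The cluster led by Scpep1, Apoe and Trp63 (250 cells) had 127 (113 to 142). The cluster led by Grp and Ivl (228 cells), whose second-best class was proximal luminal, had 11.6 (8.63 to 15.3). The highest was 10.9-fold above the lowest (8.07 to 15.01). Hoxa10 and Hoxa13 had their high point in the same Scpep1-led cluster, at 17.8 and 19.0, with 4.05-fold and 3.56-fold spreads. Hoxd13, at 37.1, 42.5 and 27.2, spread 1.56-fold (1.19 to 2.05).

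In the proximal library 6 clusters scored best for proximal luminal markers, of which 3 were named and 3 left unnamed. Those left unnamed were led by Tff3 and Sbsn (365 cells), by Clca1, Areg and Krt4 with the urothelial genes Upk3a and Ly6d among its leaders (231 cells), and by haemoglobin genes (351 cells). Hoxd13 was 65.3 CPM (58.4 to 72.9) in the Clca1-led cluster and 61.4 (56.6 to 66.5) in the haemoglobin-led cluster, against 28.6 (25.4 to 32.1) in the Tff3-led cluster and 31.4 (28.3 to 34.9) in the largest named cluster. Hoxb13 was 26.6 (22.2 to 31.5) in the Clca1-led and 62.1 in the haemoglobin-led cluster. Its high point was 87.2 in the named cluster led by Prol1, 3.28-fold above the Clca1-led cluster (2.62 to 4.13). The unnamed clusters held 39.6% of all Hoxd13 UMIs in kept proximal cells, in 947 cells, and the 516 fibroblast-like cells 21.1%.

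Distal luminal-like cells of the proximal library formed clusters rich in Sbp (a ventral lobe product, 175 cells), Tgm4 (an anterior lobe product, 371 cells in 2 clusters) or Msmb (a lateral and dorsal lobe product, 161 cells). Pooled by type, Hoxb13 was level across them in CPM, at 292 (282 to 303), 300 (291 to 310) and 286 (276 to 296). The smaller Tgm4-rich cluster (93 cells) stood at 400, 1.40-fold above the Msmb-rich cluster (1.27 to 1.54). Since Sbp and Spink1 took 51.8% of the UMIs of the Sbp-rich cells, Hoxb13 in Tgm4-rich over Sbp-rich cells gave a log2 ratio of 0.04 in CPM, -0.74 relative to the median gene and -0.97 when genes over 1% of UMIs were left out of the totals. The order of these types thus depended on the scaling. Msmb-rich over Sbp-rich cells gave -0.03, -0.67 and -0.82.

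Hoxa10 was 11.3 CPM (9.34 to 13.6) in Sbp-rich, 35.5 (32.3 to 38.9) in Tgm4-rich and 44.9 (41.0 to 49.0) in Msmb-rich cells. The ratios over Sbp-rich cells were 3.14 (2.55 to 3.88) and 3.97 (3.23 to 4.90), and their log2 values relative to the median gene 0.87, under 2-fold, and 1.35. Hoxa9 was 3.54 (2.48 to 4.90), 23.1 (20.6 to 25.9) and 17.1 (14.8 to 19.7), a 6.52-fold and 4.83-fold rise over Sbp-rich cells. These Hoxa9 log2 ratios of 2.70 and 2.27 were 1.92 and 1.64 relative to the median gene. Hoxa13 stayed level in CPM at 8.56, 8.47 and 6.92, and its log2 ratios over Sbp-rich cells relative to the median gene were -0.80 and -0.94. Hoxa9 and Hoxa10 thus stood lowest in Sbp-rich cells on both scales, and Hoxa13 did not.

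Hoxd13 and Hoxd9 were highest in the Tgm4-rich cells. Hoxd13 was 15.2 CPM (13.1 to 17.4) in Tgm4-rich, 2.75 (1.83 to 3.98) in Sbp-rich and 2.82 (1.92 to 4.01) in Msmb-rich cells. The ratios were 5.50 (3.69 to 8.50) over Sbp-rich and 5.37 (3.67 to 8.12) over Msmb-rich cells. The first, a log2 ratio of 2.46, was 0.79 as a mean over cells, under 2-fold. Hoxd9 had 45 UMIs in Tgm4-rich cells, 1 in Sbp-rich and 0 in Msmb-rich cells. Against the limit of 3 UMIs over the Msmb-rich cells it was at least 12.7-fold higher, without the counting error of the 45 UMIs, and the exact interval of the ratio began at 9.90. Both Tgm4-rich clusters carried Hoxd13, at 15.2 and 15.1.

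In counts, 5 of 9 members tested were called higher in Tgm4-rich over Sbp-rich cells (background 35.4%), 3 of 7 in Msmb-rich over Sbp-rich (24.3%) and 3 of 9, Hoxd9, Hoxd11 and Hoxd13, in Tgm4-rich over Msmb-rich cells (7.88%). With genes over 1% of UMIs left out of the totals, the first count was 3 (6.51%), with 1 lower (18.97%), and the second 3 (6.31%), with 2 lower (10.98%). Ventral Msmb-rich cells (109) against ventral Sbp-rich cells (481) gave 4 of 6 tested higher (9.59%), and 1 higher (4.38%) and 1 lower (6.88%) without those genes. There Hoxa10 was 17.5 CPM (13.0 to 23.1) and 7.96 (6.53 to 9.61), a ratio of 2.20 (1.54 to 3.10). Its log2 value of 1.14 lay between 0.65 and 0.99 under 9 alternatives, all of them under 2-fold, and that of Hoxa9, 1.25, between 0.76 and 0.92 under 5. The remaining 854 ventral secretory cells scored nominally for Tgm4, but their clusters held at most 0.705 CPM of Tgm4, against 16410 and 19700 in the Tgm4-rich clusters of the proximal library.

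**Figure D3:**
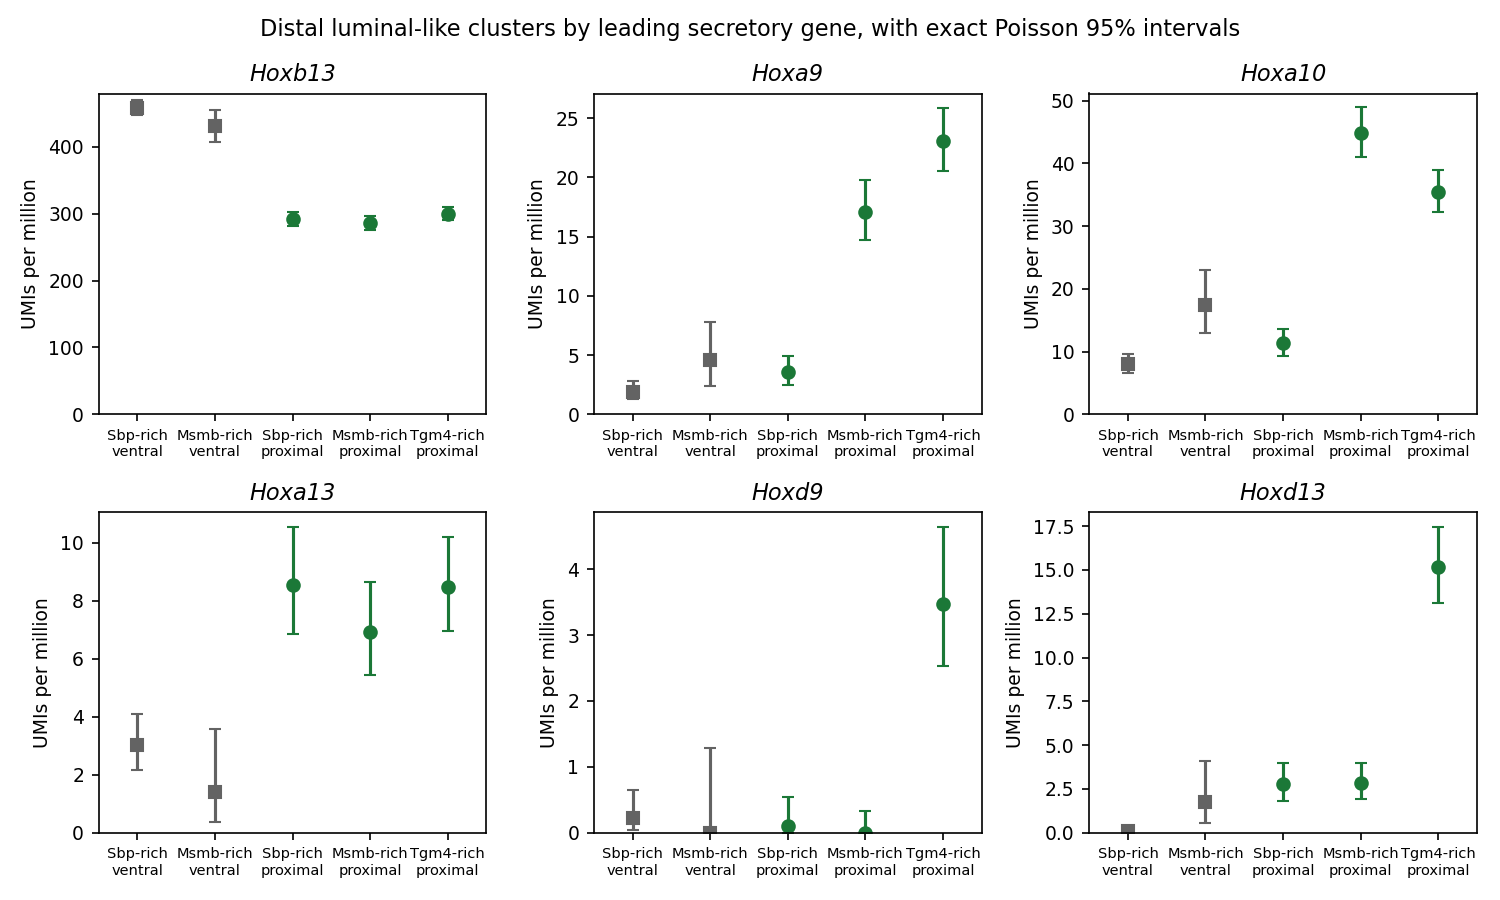
Levels in CPM (y axes) of 6 members in distal luminal-like clusters grouped by their leading secretory gene (x axes), with exact Poisson 95% intervals; squares are the ventral and circles the proximal library. In the proximal library Hoxb13 lies between 286 and 300 in all 3 types, Hoxa10 is 11.3 in the Sbp-rich type, and Hoxd13 is 15.2 in the Tgm4-rich type.

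Between the libraries, most members differed in distal luminal-like cells. Hoxd13 was 14.9-fold higher in proximal than in ventral distal luminal-like cells (9.48 to 24.9), Hoxd9 10.7-fold (4.29 to 34.6), Hoxa9 5.999-fold (4.84 to 7.49) and Hoxa10 3.18-fold (2.83 to 3.57). In all, 8 of 10 members were called higher, where 45.9% of all genes tested were. With genes over 1% of UMIs left out of the totals, 6 were higher (25.6%) and 1, Hoxb13, lower (5.98%). Relative to the median gene their log2 ratios ran from 0.63 for Hoxd10 to 2.99 for Hoxd13, with Hoxa10 (0.75) and Hoxa13 (0.65) also under 2-fold. Hoxb13 was 1.60-fold lower (1.56 to 1.64), short of the fold, with a log2 ratio of -1.27 under those totals and -1.59 relative to the median gene.

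The libraries hold different secretory cells, so like was also set against like. Proximal over ventral Sbp-rich cells gave 3 of 7 members tested higher (background 19.7%): Hoxa13 at 8.56 against 3.02 CPM, Hoxd11 at 1.48 against 0.147 and Hoxd13 at 2.75 against 0.0737. The ventral values of Hoxd11 and Hoxd13 rest on 2 and 1 UMIs. Both members thus met the minimum of UMIs for a call through their proximal UMIs. At a minimum of 50 UMIs, 1 of 4 members tested was called higher (12.6% of genes tested). The 854 remaining ventral secretory cells, with 48.1% of UMIs from Sbp and Spink1, held Hoxd13 at 0.597 CPM. Against them and the ventral Sbp-rich cells together the log2 ratio of Hoxd13 fell from 5.22 to 2.76, and that of Hoxd11 from 3.32 to 2.77. The count of members called higher was not recomputed for this wider ventral group. Hoxa10, at 11.3 against 7.96, gave a ratio of 1.42 (1.08 to 1.87), and Hoxa9, at 3.54 against 1.92, gave 1.85 (1.09 to 3.19). Proximal over ventral Msmb-rich cells gave 3 of 7 higher (26.8%), Hoxa9, Hoxa10 and Hoxa13, and 1 lower (1.41%), Hoxd11, from 7 and 9 UMIs. The log2 ratio of Hoxa10 there, 1.36, was 0.73 relative to the median gene, under 2-fold. Hoxb13 was 1.57-fold (1.501 to 1.64) and 1.51-fold (1.41 to 1.61) lower in the proximal library in these types. Its log2 ratios of -0.65 and -0.59 were -0.98 and -1.22 relative to the median gene, the second past 2-fold. Without genes over 1% of UMIs in the totals they were -0.59 and -0.83.

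Proximal luminal-like cells of the proximal library had 7.02-fold less Hoxb13 than those of the ventral library (6.27 to 7.86), and basal-like cells 4.88-fold less (4.11 to 5.77). Ventral secretory RNA differed between the libraries in these classes too. In the ventral library Sbp and Spink1 took 19.9% of the UMIs of proximal luminal-like and 1.62% of those of basal-like cells, with over 5% in 35 of the 94 and 4 of the 141 cells. If the Sbp and Spink1 UMIs had brought Hoxb13 at the ratio found in ventral Sbp-rich cells, they would carry 186 of the 364 CPM in proximal luminal-like and 15.2 of the 247 CPM in basal-like cells. Without the cells over 5%, Hoxb13 was 284 CPM (244 to 328) in 59 proximal luminal-like and 250 (215 to 290) in 137 basal-like cells of the ventral library. The log2 ratios of proximal over ventral cells were then -2.45 and -2.31, beside -2.81 and -2.29 with all cells, so that leaving these cells out made the difference smaller in proximal luminal-like but not in basal-like cells. Among the basal-like clusters of the proximal library Hoxb13 ran from 11.6 to 127 CPM, so the basal-like ratio is that of a mixed class. The part of free RNA, of mixed cells or of this mix of clusters in these differences was not tested.

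Hoxa10 was lower as well, 3.13-fold in proximal luminal-like (2.20 to 4.36) and 5.81-fold in basal-like cells (3.93 to 8.44). The first, a log2 ratio of -1.64, was -0.59 with cells named one by one from marker z-scores, and the second stands beside the fibroblast and smooth muscle RNA of ventral basal-like cells. With Hoxd12, 3 of 10 members were called lower in proximal luminal-like cells (background 11.5%). In basal-like cells 2 of 9 tested were called lower (14.0%). With all cells of the named classes counted, Hoxd13 did not differ between libraries beyond counting error in either class. In proximal luminal-like cells the ratio was 1.07 (0.793 to 1.49), a log2 value of 0.10 that became -0.77 without the ventral cells over 5% of Sbp and Spink1. The ventral level was then 59.0 CPM (41.7 to 80.9) against 34.5 (31.6 to 37.7) in the proximal library, intervals that do not overlap. In basal-like cells the level was 1.11-fold lower (0.730 to 1.63). Hoxd11, with ratios of 1.04 (0.504 to 2.48) and 1.06 (0.610 to 2.03), gave intervals that hold a 2-fold difference, and its log2 ratio of 0.05 in proximal luminal-like cells became -0.27 without genes over 1% of UMIs in the totals and -1.10 without the ventral cells over 5% of Sbp and Spink1.

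**Figure D4:**
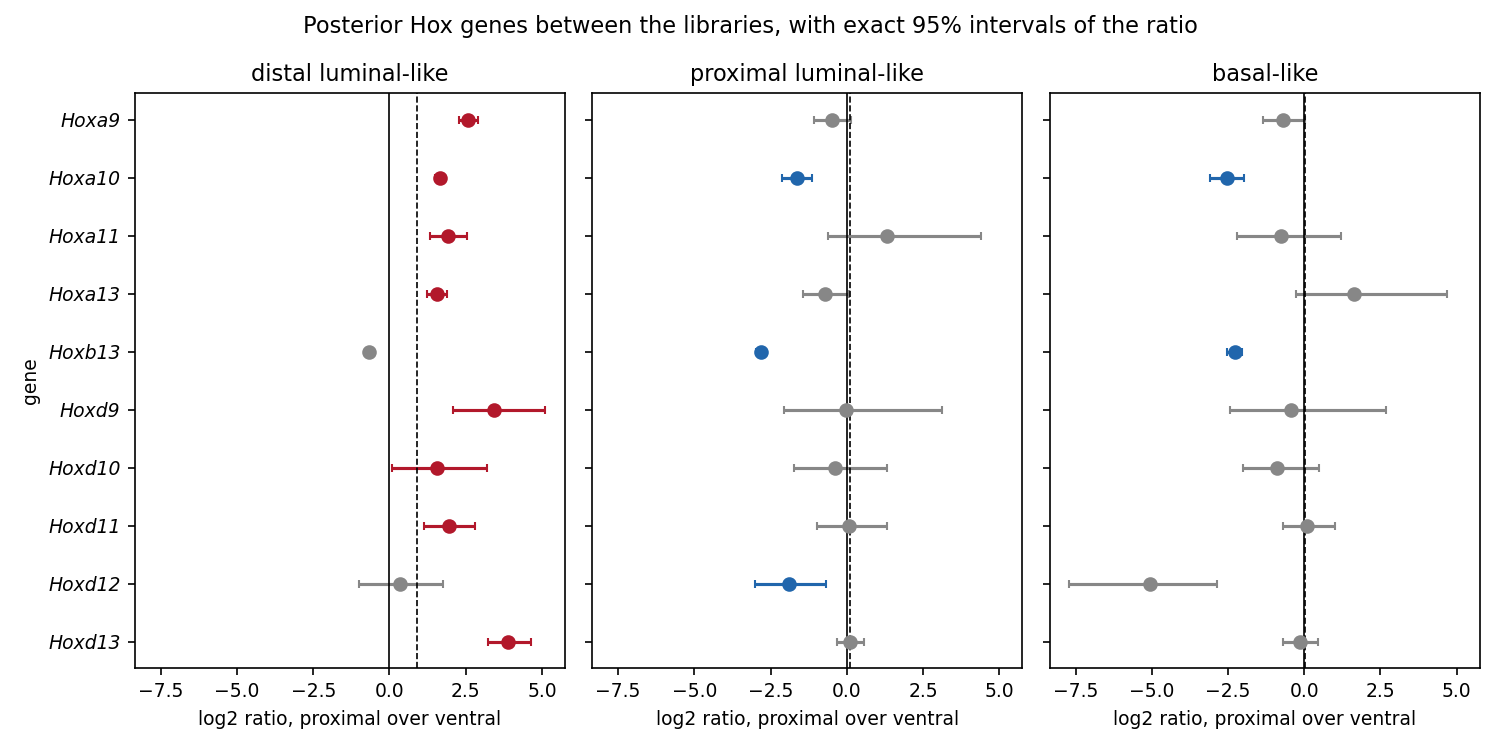
log2 ratio of proximal over ventral library (x axes) for the 10 members (y axis) in 3 classes, with exact 95% intervals; red marks members called higher, blue those called lower, grey those not called, and the dashed line the median of all genes tested. In distal luminal-like cells 8 members are red and the dashed line is at 0.92, while Hoxb13 and Hoxa10 are blue in both other classes.

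The rest of the Hox family and its neighbours were read from lists of 29 other Hox genes, 11 noncoding RNAs and neighbours of the clusters (10 of them in the files), 9 TALE cofactors and 6 prostate factors. The 9 HoxC genes gave 1 UMI in kept ventral and 10 UMIs in kept proximal cells. The 10 HoxB genes gave 22823 and 14792, of which 22554 and 12493 were Hoxb13. In fibroblast-like over basal-like cells 4 of 15 other Hox genes tested were called higher and 3 lower, where 24.6% and 11.1% of all genes were. The higher share is near that of all genes. The 4 were Hoxb2, Hoxb3, Hoxb4 and Hoxb5. Hoxb2, an anterior gene, stood at 13.8 CPM against 0.491 (28.1-fold, 12.3 to 79.0).

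Of the neighbours, 5 of 8 tested were higher in fibroblast-like over basal-like cells and 2 lower (24.6% and 11.1% of all genes). Evx2, a homeobox gene 8.75 kb from Hoxd13, stood at 42.7 CPM (37.4 to 48.6) in fibroblast-like, 4.09 in basal-like, 1.52 in proximal luminal-like and 0.264 in distal luminal-like cells. Evx1, its counterpart 52.6 kb from Hoxa13, stood at 18.8 (15.3 to 22.8), 0.327, 5.26 and 0.381. The remaining genes of this paragraph were chosen after their values were seen. Lnpk (88.9 kb from Hoxd13) was 2.34-fold (1.97 to 2.78) and the noncoding RNA Hottip (1.90 kb from Hoxa13) 21.4-fold (7.69 to 82.4) higher in fibroblast-like over basal-like cells. The 2 called lower were Skap2, beyond the other end of the HoxA cluster, 3.49-fold (2.42 to 5.18), and the noncoding RNA Hotairm1, an antisense RNA whose reads may not be told apart by strand, 2.36-fold (1.67 to 3.44). Mtx2, beyond the other end of the HoxD cluster, was 1.27-fold lower (1.04 to 1.57), short of a call.

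Among the prostate factors, Fgf10 and Bmp4, growth factors made by prostate mesenchyme, stood at 38.3 and 204 CPM in fibroblast-like against 0.0818 and 8.67 in basal-like cells. Shh, a ligand made by prostate epithelium, was 33.8 in basal-like and 0.736 in fibroblast-like cells of the proximal library. Of the 9 TALE cofactors, which bind DNA together with Hox proteins, 5 were higher in proximal luminal-like over distal luminal-like cells of the ventral library (29.2% of all genes), led by Meis2 at 134 against 0.176 CPM. In the proximal library 3 were higher and 1 lower, near the 24.9% and 14.3% of all genes, with Meis2 at 74.0 against 3.19.

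Within the secretory types of the proximal library, 10 of 12 other Hox genes tested were higher in Tgm4-rich over Sbp-rich cells and 6 of 10 in Msmb-rich over Sbp-rich cells, where 35.4% and 24.3% of all genes were. With genes over 1% of UMIs left out of the totals those shares of all genes were 6.51% and 6.31%, and the counts of other Hox genes were not recomputed. Hoxb9 stood at 36.8 CPM (33.6 to 40.2) in Tgm4-rich, 2.66 in Sbp-rich and 3.64 in Msmb-rich cells, 13.9-fold (9.40 to 21.2) and 10.1-fold (7.31 to 14.3) apart. Hoxd8, next along the HoxD cluster from Hoxd9, stood at 4.85, 0.394 and 0.728. Hoxa7 was higher in Msmb-rich cells, at 11.9 against 4.85 in Tgm4-rich and 0.689 in Sbp-rich cells. Hoxa11os stood at 99.5 in Msmb-rich, 69.1 in Tgm4-rich and 25.4 in Sbp-rich cells.

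The genes with the most similar pattern were sought over the 9 named classes of at least 50 cells, with Pearson's r of log2(CPM + 1) among 12874 genes. They were Med22, Sirt5 and Nop10 for Hoxb13 (r from 0.960 to 0.979), Arsk, Arhgef17 and Cables1 for Hoxd13 (0.977 to 0.982), Exd2, Zfp385b and Sox5 for Hoxa13 (0.963 to 0.976), and Pcolce, Ccdc157 and Wnt5a for Hoxa11 (0.947 to 0.964). Hoxa10 gave Vps9d1, Tpgs1 and Prpsap1 (0.951 to 0.952), and Hoxa9 gave Acadvl, Aamp and Cbx1 (0.957 to 0.969). Among the HoxD members, Hoxd11 gave Dgcr8, Zadh2 and Slc1a3 (0.966 to 0.992), Hoxd10 gave Rarg, Ccdc137 and Lbp (0.982 to 0.988) and Hoxd9 gave Trib2, Hk1 and Ptprg (0.962 to 0.975). Hoxd12, with 89 UMIs over these classes, was under the minimum of 100. The points share library, depth and composition, so these values only describe the 9 classes.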

How the data were processed

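Each sample came as a filtered gene-barcode matrix of UMI counts, deposited by the authors without normalization. Per the file headers and the submitters' processing notes, the counts were made with Cell Ranger 7.0.0 on mm10 (GRCm38). The gene annotation and the use of intronic reads are not given in the sources used here, and intronic counting would add UMIs from introns and from overlapping genes. Gene positions come from GENCODE M21 and promoter sequences from RefSeq, both matched by name or ID.

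Barcodes with at least 500 genes and at most 10% mitochondrial UMIs were kept. Scrublet, run in scanpy 1.11.5, called 0.193% of cells as doublets, too few for its calls to be relied on, so doublets largely remain. Each library was normalized to 10000 UMIs per cell and clustered on 2000 variable genes without Hox genes (30 components, 15 neighbours, Leiden resolution 1). Clusters were named from 23 marker lists, needing at least 3 markers in 25% of cells. UMIs were then summed per class and compared by exact intervals from scipy 1.17.1. Total UMIs were 49356584 and 97817600, and the precision of each level is set by the UMIs of that gene, as its interval shows. Intervals at 95% and the limit of 3 UMIs for a count of 0 cover counting error only. Shares of cells were taken after thinning each cell to 1000 or 5000 UMIs. The ratio calculation was tested on simulated counts.

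The rule for names took all 10 members, the 3 most similar genes for each member with at least 100 UMIs, and up to 4 pathway genes per comparison with the largest ratio among those with at least 50 UMIs. Members and lists were chosen with earlier results of these data known. In all 18 comparisons were made, with alternatives for filtering, doublets, clustering, naming, scaling and free RNA. Classes of fewer than 50 cells were left out of the comparisons. The values of some genes on these lists are not reported here.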

Additional observations from a re-analysis of the deposited data

Results flagged for a closer look

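Hoxa10 moved in opposite directions in the 2 libraries. Proximal luminal-like over distal luminal-like cells gave a log2 ratio of 1.74 among ventral and -1.57 among proximal cells, a difference of 3.31. Basal-like over distal luminal-like cells gave 2.45 and -1.76, a difference of 4.21. The same 6 levels, read between libraries, gave Hoxa10 a log2 ratio of proximal over ventral cells of 1.67 for the distal luminal-like, -1.64 for the proximal luminal-like and -2.54 for the basal-like class, so that the differences are again 3.31 and 4.21. With 1 library of each dissection these differences were not tested, and dissection, kit and the kinds of secretory cell in each library cannot be told apart. Hoxa10 in proximal distal luminal-like cells was lowest in the Sbp-rich type, at 11.3 CPM, beside 7.96 in ventral Sbp-rich cells. Proximal luminal-like and basal-like cells of the proximal library stood near it, at 10.5 and 9.25.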

How the results depend on the processing

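None of the 88 called log2 ratios of members changed sign in 1409 values under the alternatives that gave one, but 18 of them fell under 2-fold in 41 of those values. Of these, 17 are given in the report, and the other, Hoxa11 in Tgm4-rich over Sbp-rich cells, fell from 1.37 to 0.36 with other totals. Of 159 ratios in all, 18 changed sign under another scaling, and none of these 18 was called. Hoxb13 of proximal over ventral cells, -0.68 in distal luminal-like cells, was -1.27 without genes over 1% of UMIs in the totals, -0.64 with 5% free RNA subtracted and -1.59 relative to the median gene. In proximal luminal-like cells its -2.81 became -3.08 (doublets at the expected rate left out), -3.49 and -3.07 (Leiden resolution 0.5 and 1.5), -3.01 (random seed 1), -3.12 (Hox genes among the variable genes), -3.28 (cells named by marker z-score), -3.14 (totals without genes over 1%), -2.60 (mean over cells), -2.45 (cells over 5% Sbp and Spink1 left out) and -3.01 (unnamed clusters added). In basal-like cells its -2.29 became -2.60 by z-score and -2.01 as a mean over cells. Within the proximal library, basal-like over distal luminal-like cells gave -2.54 for Hoxb13, with -2.92, -2.35, -2.71 and -2.76 under other totals, the mean over cells, free RNA subtraction and the median gene, and 2.21 for Hoxd13, with 1.83, 1.60 and 2.49 under the first 3 of these. Hoxd13 in fibroblast-like over basal-like cells, 1.77, was 1.54 by z-score and 1.53 relative to the median gene. Hoxa10 in Msmb-rich over Sbp-rich cells, 1.99, was 1.20 with other totals and 1.35 relative to the median gene. Hoxd13 in Tgm4-rich over Msmb-rich cells, 2.43, was 3.49 with free RNA subtracted. At a fold of 4 the counts of higher members fell to 3 in distal luminal-like cells between libraries (20.97% of all genes tested), 4 in fibroblast-like over basal-like (12.7%) and 3 in Tgm4-rich over Sbp-rich cells (8.05%). The last was also 3 with other totals (6.51%). Proximal luminal-like over distal luminal-like cells of the ventral library gave 4 of 5 members tested at a minimum of 50 UMIs (32.4%), beside 7 of 9 in the main setting. The share of fibroblast-like cells with Hoxd13, 10.8% at 1000 UMIs, was 6.40% at 500, 42.6% at 5000 and 60.1% without thinning, since a share grows with depth. For the other changes the cause was not tested. Thinning to 5000 UMIs, the comparison of Msmb-rich or Sbp-rich cells with all other ventral secretory cells, the added unnamed clusters and the scaling to the median gene were chosen after seeing the data. No paired analysis was possible because each group has 1 library. Members with under 10 UMIs over the classes compared, such as Hoxd12 in basal-like cells between libraries (9 UMIs), could not be called at this depth.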

Other observations

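Seminal vesicle epithelium-like cells, 26 cells of the proximal library led by Svs5 and Svs4, were too few for the comparisons. Of the members, Hoxb13 stood at 27.3 CPM, Hoxd9 at 18.9 (11.2 to 29.9) and Hoxd13 at 2.10, the last from 2 UMIs. Among the other Hox genes, chosen after their values were seen, Hoxb6 stood at 82.0 CPM (64.8 to 102), Hoxb8 at 56.8, Hoxb9 at 28.4, Hoxb7 at 18.9, Hoxd8 at 15.8, Hoxd4 at 14.7 and Hoxb2 at 14.7, while Hoxa7 had no UMI. In fibroblast-like cells Hoxb6 was 4.05 and Hoxb8 0.184, and in distal luminal-like cells of the same library Hoxb6 was 2.72 and Hoxb8 1.26. This cluster is 1 group of 26 cells in 1 library.

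A named proximal luminal-like cluster of 47 cells, led by Gm12703 and Trpv2, had the highest level of Hoxa9 (61.3 CPM), Hoxa10 (48.3), Hoxd9 (7.83), Hoxd10 (7.83), Hoxd11 (19.6) and Hoxd12 (5.22) among the 6 clusters with that best score. Its Hoxa9 level was 7.09-fold (4.90 to 10.1) and its Hoxa10 level 7.57-fold (4.96 to 11.4) above the lowest of them. Its cells had a median of 12921 UMIs, against 30443.5 in the lowest cluster.

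In endothelial-like cells 4 other Hox genes, also chosen after their values were seen, were Hoxa7 at 28.5 CPM, Hoxb9 at 28.5, Hoxb7 at 24.8 and Hoxb4 at 19.8.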
